A study of Mus musculus with 4 samples.

Results

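The 10 genes described here were listed as feedback and target genes of interleukin-2 (IL-2) and the transcription factor STAT5. Whether IL-2 or STAT5 acts on these 10 genes in these cells was not tested. The genes were followed in sorted mouse regulatory T cells: the SOCS family inhibitors Cish, Socs1, Socs2 and Socs3, the kinases Pim1 and Pim2, the D cyclins Ccnd2 and Ccnd3 with their kinase Cdk6, and the cytokine Osm. They were chosen by name, and all 10 were found by gene ID among the 52636 genes of the deposited count table. Each also passed the filter on low counts, with 10216 genes tested in all. The cells came from 7-week-old C57BL/6 mice and carried the sort phenotype CD4+CD62L+CD25bright. One group of 2 libraries is Vav1R63W, a knock-in allele of the T cell receptor signalling protein Vav1. The other group of 2 libraries is Vav1R63WThemis1-T-/-, with the same allele plus loss of Themis1 in T cells. Both groups carry Vav1R63W, so no library here stands for wild-type Vav1, and the promoter that drives the deletion is not given in the sources used here. No label says that replicates 2 and 3 of a group are separate animals, so the tests measure the spread between libraries, which may be technical.

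IL-2 binds a receptor of 3 chains, and the kinases JAK1 and JAK3 on that receptor phosphorylate STAT5, which enters the nucleus as a dimer. Regulatory T cells make little IL-2 of their own and depend on it through their high CD25 (Il2ra), and STAT5 helps to maintain their lineage factor Foxp3. Among the genes STAT5 turns on are its own brakes. CIS (from Cish) and the SOCS proteins bind phosphorylated receptors or JAKs and recruit a ubiquitin ligase, so Cish and Socs transcripts are widely read as feedback genes of cytokine signalling. Pim kinases support survival and growth, and D cyclins with CDK4 or CDK6 phosphorylate the retinoblastoma protein in G1.

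A pair of stretches of mouse sequence shows the element through which STAT5 is known to act, TTCNNNGAA, which reads the same on both strands. Windows of 250 bases before and 50 bases after the annotated start (RefSeq, GRCm38.p6) were matched for 7 of the 10 members, in 9 windows, and not for Socs2, Ccnd2 and Osm. Cish and Socs3 held the element, and the windows of Socs1, Pim1, Pim2, Ccnd3 and Cdk6 did not. The element occurred in 8.30% of all 32851 such windows, and 2 or more matches, as in Cish, in 0.457%. A match describes letters only. The 30 bases around the elements are given 5′ to 3′, with the elements in capitals. The first Cish element begins at the annotated start and the second 11 bases further on (chr9:107296654-107296683, plus strand). The Socs3 element begins 154 bases before the start (chr11:117969501-117969530, minus strand). These RefSeq starts differ from those of the GENCODE M21 gene models used elsewhere here. Cish begins there at 107296026 and Socs3, on the minus strand, at 117970047, so both stretches lie inside those models.
Cish: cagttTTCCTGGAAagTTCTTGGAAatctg
Socs3: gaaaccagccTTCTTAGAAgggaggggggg

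Reads assigned to genes numbered 13963670 to 15953194 per library. Levels are given as CPM, the reads of a gene scaled to a common library total. Foxp3 was at 904 and 636 CPM in Vav1R63W replicates 2 and 3, and at 1014 and 737 CPM in the libraries labelled Vav1R63WThemis1-T-/-, in the same order. All 10 regulatory T cell markers had reads in the series, but so did all 5 conventional CD4 T cell markers and 4 of 10 B cell markers. The B cell markers with reads summed to 1180 and 1303 CPM in Vav1R63W, and to 1312 and 1370 CPM in the other group. Having reads therefore does not tell these cell types apart. Themis, the targeted gene, had 283 and 97 reads in the Vav1R63W libraries, 685 in the library labelled Vav1R63WThemis1-T-/- replicate 2, and 0 in replicate 3. The second group's replicate 2 therefore goes against its label. Which exons the deletion removes is not given in the sources used here, and a gene's total reads check it only where they fall in those exons. Every direction below is between labels, and the second group is written "labelled deleted". For each member the fold change without the labelled deleted replicate 2 is given beside its result.

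None of the 10 members passed the test between the groups. In the quasi-likelihood test of edgeR each had an adjusted p of 1.000, and 0 of 10 had an unadjusted p under 0.05. Over all tested genes 0% were called at an adjusted p under 0.05 and 4.98% had an unadjusted p under 0.05. limma-voom also called 0 members (0% of all genes). DESeq2 called 0 members against 1.92% of all genes. The authors' deposited table called none of the 10, against 1.56% of its genes with an adjusted p. The fitted log2 fold change, labelled deleted minus Vav1R63W, was positive for 8 members and negative for Socs2 and Cdk6. Its median was 0.27 over the members and 0.00 over all tested genes. Leaving out 1 library moved both medians, except that the members' median barely changed without the labelled deleted replicate 3. Without Vav1R63W replicate 2 the members' median was 0.07 and that of all genes 0.08, and without Vav1R63W replicate 3 they were 0.16 and 0.08. Without the labelled deleted replicate 2 they were 0.14 and -0.20, and without the labelled deleted replicate 3 they were 0.27 and -0.08.

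**Figure D1:**
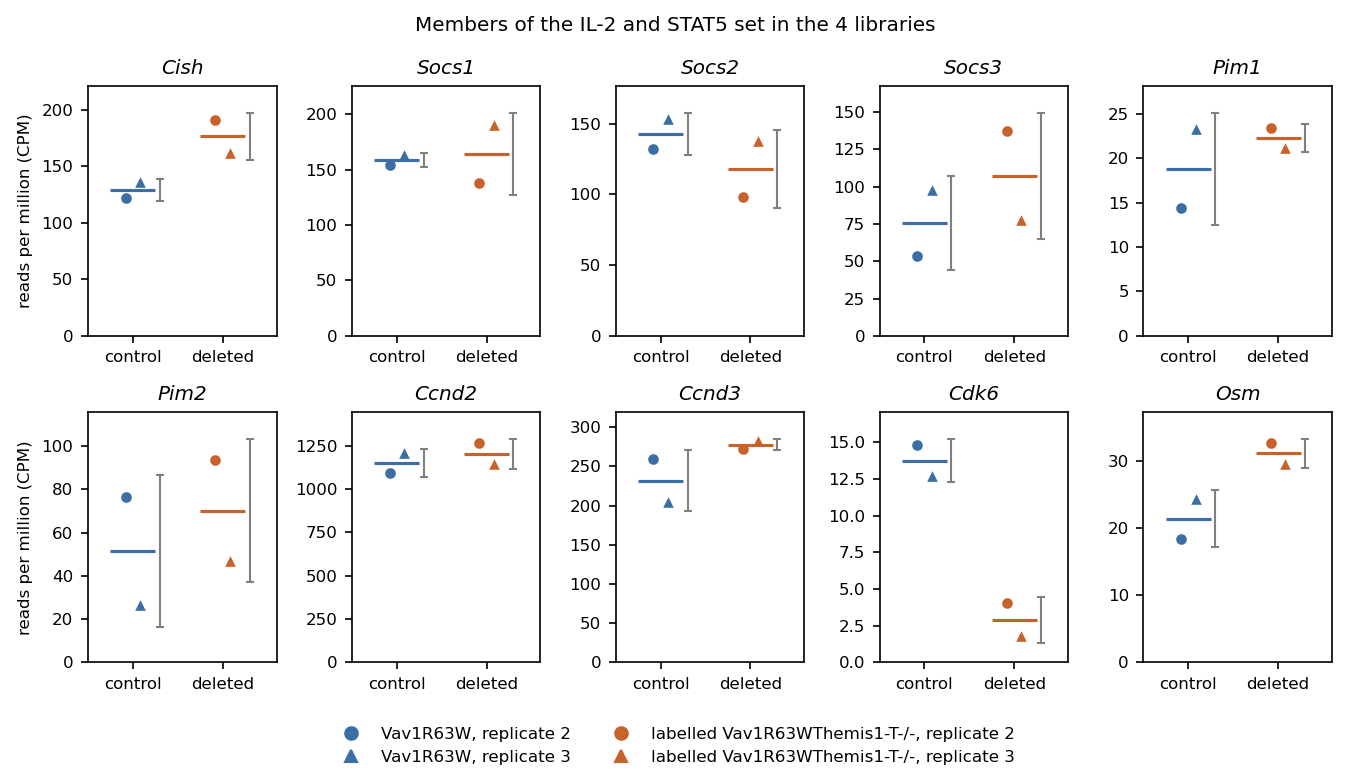
CPM of each member (linear axis from 0, a separate scale per gene) in Vav1R63W ("control") and labelled deleted libraries; points are libraries, horizontal lines group means and grey bars the SD over 2 libraries. The groups stand apart for Cish, Ccnd3, Cdk6 and Osm and overlap for the other members.

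For 3 members both labelled deleted libraries lay above both Vav1R63W libraries (Cish, Ccnd3 and Osm), a pattern found in 15.1% of all tested genes. For 1 member, Cdk6, both lay below, as in 18.7% of tested genes. At 10 members these shares come to few genes either way, and nothing particular to the set is read from them.

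Among the inhibitors, Cish (ENSMUSG00000032578, GRCm38 chromosome 9, 107296026 to 107302784, plus strand) had the smallest p of the set. CIS blocks STAT5 docking at cytokine receptors and is a standard readout of STAT5 activity. Cish was at 122 and 136 CPM with Vav1R63W alone and at 191 and 162 CPM in the labelled deleted libraries. The groups did not overlap, and the lowest labelled deleted library was the replicate 3, which had no Themis reads. Group means were 129 ± 9.72 and 177 ± 21 CPM (SD, n = 2 each), a ratio of 1.37. The log2 fold change was 0.47 ± 0.23 (SE, edgeR unadjusted p = 0.108), and 0.37 without the labelled deleted replicate 2, with 0.37 to 0.58 over the 4 fits that leave out 1 library. In the authors' deposited table it was 0.44 with an adjusted p of 0.405.

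The count of Cish depends on how reads of overlapping genes are assigned. The deposited files give an unstranded column, used here, and a column for each strand. For Cish the unstranded column held only 45.9% to 51.6% of the reads in the strand columns together. Opposite to Cish the annotation places the transcripts Gm17041 and Gm17040, which share 479 and 261 of the 6419 exon bases of Cish. The unstranded counting gave these neighbours 0 or 1 read per library, while their strand columns held up to 2346. With both strand columns summed, Cish had 3643 and 4265 reads with Vav1R63W alone and 5914 and 4737 in the labelled deleted libraries. The order of the groups was the same on that column, with a log2 fold change of 0.38 ± 0.17 (SE, edgeR adjusted p = 1.000). Since strand is not marked by the library kit, shared reads cannot be given to either gene. The same reads may stand in the strand columns of both, so those columns do not measure the neighbours' own transcripts.

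Socs1, which encodes a direct inhibitor of JAK kinases (ENSMUSG00000038037, chromosome 16), was at 154 and 163 CPM with Vav1R63W alone and at 138 and 190 CPM in the labelled deleted libraries. Both labelled deleted libraries lay outside the narrow Vav1R63W range, one on each side. Its log2 fold change was 0.08 ± 0.27 (SE). It was 0.31 without the labelled deleted replicate 2 and -0.21 without the labelled deleted replicate 3.

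Socs2, whose product restrains growth hormone signalling among others (ENSMUSG00000020027, chromosome 10), was at 133 and 153 CPM with Vav1R63W alone and at 98.5 and 138 CPM in the labelled deleted libraries. The highest labelled deleted library reached into the Vav1R63W range, so the groups overlapped. Socs2 was the only inhibitor of the 4 with a negative fold change, at -0.25 ± 0.31 on the log2 scale (SE). It was -0.01 without the labelled deleted replicate 2 and -0.54 without the labelled deleted replicate 3.

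Socs3, which encodes the inhibitor of gp130 cytokine receptors (ENSMUSG00000053113, chromosome 11), varied most within a group among the inhibitors. It was at 53.6 and 97.8 CPM with Vav1R63W alone and at 137 and 77.5 CPM in the labelled deleted libraries, a spread of 1.83-fold and 1.77-fold between replicates. The middle libraries of the 4 came from different groups. The log2 fold change of 0.52 ± 0.50 (SE) was 0.07 without the labelled deleted replicate 2 and 0.12 without Vav1R63W replicate 2. It was 1.04 without Vav1R63W replicate 3 and 0.85 without the labelled deleted replicate 3. Socs1, Socs2 and Socs3 have no exon bases shared with a neighbour, and the unstranded column held 100% of their reads.

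**Figure D2:**
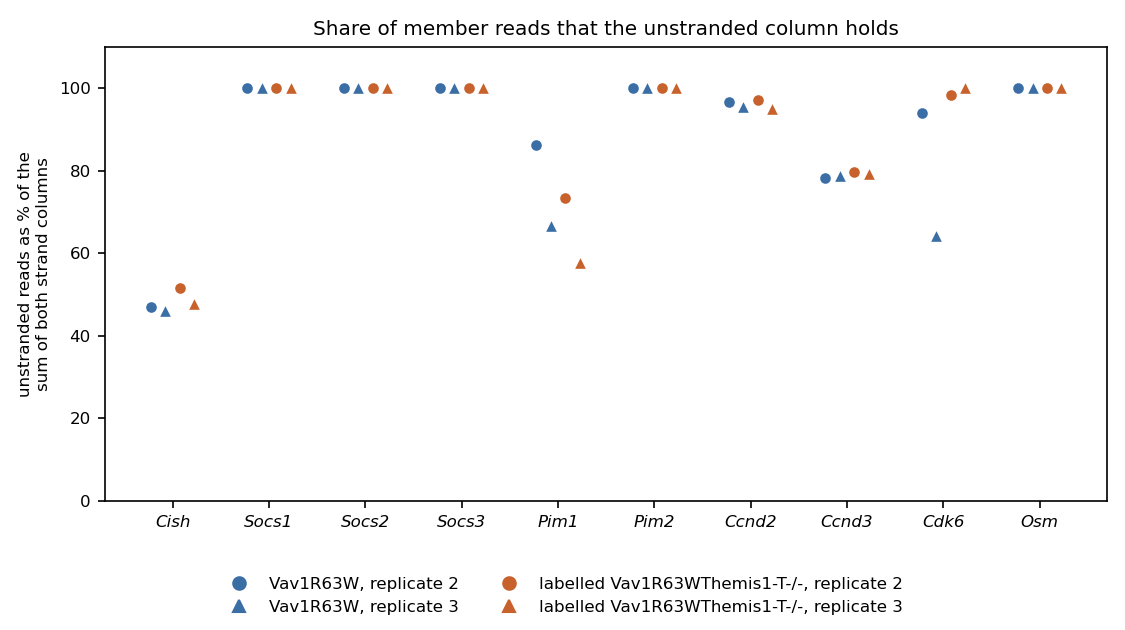
Reads of each member in the unstranded column as a percent of both strand columns summed (linear axis), one point per library. Cish sits between 45.9% and 51.6%, Ccnd3 near 79%, Pim1 and Cdk6 vary between libraries, and 5 members are at 100%.

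Of the kinases, Pim2 (ENSMUSG00000031155, chromosome X, 7878262 to 7883432, plus strand), a constitutively active survival kinase, was ordered by replicate number. It was at 76.3 CPM in Vav1R63W replicate 2 and 26.6 CPM in replicate 3, and at 93.5 and 46.8 CPM in the labelled deleted libraries. Both replicates 2 lay above both replicates 3, with a 2.87-fold and a 2.0-fold difference. Its log2 fold change of 0.47 ± 0.70 (SE) changed sign without Vav1R63W replicate 3 (-0.08) or without the labelled deleted replicate 2 (-0.08), and was 1.39 without Vav1R63W replicate 2 and 0.87 without the labelled deleted replicate 3. Socs1 and Socs2 showed the opposite order, with both replicates 3 above both replicates 2. The labels do not say whether the number marks a shared day or litter. Over all tested genes the differences of replicate 2 minus 3 correlated at 0.02 between groups. The share of all tested genes with such an order was not counted, so nothing particular to these members is read from it.

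Pim1 (ENSMUSG00000024014, chromosome 17), the Pim kinase most often described as STAT5-induced, was at 14.4 and 23.3 CPM with Vav1R63W alone and at 23.4 and 21.1 CPM in the labelled deleted libraries. Only Vav1R63W replicate 2 stood apart, below the other libraries. The log2 fold change was 0.26 ± 0.89 (SE). It was -0.07 without that library, 0.68 without Vav1R63W replicate 3 and 0.21 without the labelled deleted replicate 2. The unstranded column held 57.7% to 86.3% of the strand-resolved reads, since the antisense transcript Gm26885 shares 488 of the 3362 exon bases of Pim1. With both strand columns summed Pim1 had 233 and 504 reads with Vav1R63W alone and 508 and 511 in the labelled deleted libraries, and again replicate 2 of Vav1R63W was the low one.

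The D cyclins come next. Ccnd2 (ENSMUSG00000000184, chromosome 6), the D cyclin most tied to IL-2 in T cells, was at 1094 and 1207 CPM with Vav1R63W alone and at 1263 and 1142 CPM in the labelled deleted libraries. The groups overlapped, with replicates within 1.10-fold and 1.11-fold of each other. The log2 fold change was 0.09 ± 0.12 (SE), the smallest error of the set. It was 0.03 without the labelled deleted replicate 2, and -0.01 and 0.18 without Vav1R63W replicates 2 and 3.

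Ccnd3 (ENSMUSG00000034165, chromosome 17), the other D cyclin of lymphocytes, was at 259 and 204 CPM with Vav1R63W alone and at 272 and 283 CPM in the labelled deleted libraries. The groups did not overlap, but Vav1R63W replicate 2 lay close below the labelled deleted pair. Means were 232 ± 38.8 and 278 ± 7.19 CPM (SD, n = 2 each), a ratio of 1.20 and a log2 fold change of 0.29 ± 0.19 (SE, edgeR unadjusted p = 0.209). It was 0.33 without the labelled deleted replicate 2, and 0.44 and 0.15 without Vav1R63W replicates 2 and 3. Bysl, on the other strand, shares 361 exon bases with Ccnd3, and the unstranded column held 78.2% to 79.7% of the strand-resolved reads. That share was nearly the same in every library, and the summed columns gave a log2 fold change of 0.28 ± 0.18 (SE).

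Cdk6 (ENSMUSG00000040274, chromosome 5, 3341485 to 3531008, plus strand), a catalytic partner of the D cyclins, had the largest difference of the set and the opposite direction. It had 207 and 183 reads with Vav1R63W alone and 64 and 25 in the labelled deleted libraries. In CPM these were 14.8 and 12.7 against 4.01 and 1.79, so every labelled deleted library lay below both Vav1R63W libraries. Mean CPM was 4.74-fold lower, at 13.7 ± 1.47 and 2.90 ± 1.57 (SD, n = 2 each). The log2 fold change was -2.22 ± 1.54 (SE, edgeR unadjusted p = 0.216), -2.89 without the labelled deleted replicate 2 and -1.78 without the labelled deleted replicate 3. DESeq2 gave -2.22 with an adjusted p of 0.679, and the authors' deposited table -0.62 with an adjusted p of 0.577. Why the deposited value, also from DESeq2, is smaller in size was not tested. For Osm it was smaller too (0.35 against 0.57), and for Ccnd2 nearly equal (0.088 against 0.090).

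Cdk6 lies where this series is least precise. Among the 5343 tested genes under a mean of 30 CPM, the median ratio between replicates was 2.26 with Vav1R63W alone and 3.39 in the labelled deleted libraries (CPM + 0.1), against 1.19 and 1.24 for the 2005 genes at 100 CPM or more. Cdk6, Pim1 and Osm belong to the first class, Socs3 and Pim2 to the class between, and the other 5 members to the last. The members of the first class had smaller ratios than its medians. In CPM these were 1.16 and 2.24 for Cdk6, 1.62 and 1.11 for Pim1 and 1.33 and 1.10 for Osm, in the same order of groups. Antisense to Cdk6, Gm17590 shares 368 exon bases, and in Vav1R63W replicate 3 the unstranded column held 64.2% of the strand-resolved reads. With both strand columns summed Cdk6 had 220 and 285 reads against 65 and 25, a log2 fold change of -2.57 ± 1.32 (SE, edgeR adjusted p = 1.000).

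**Figure D3:**
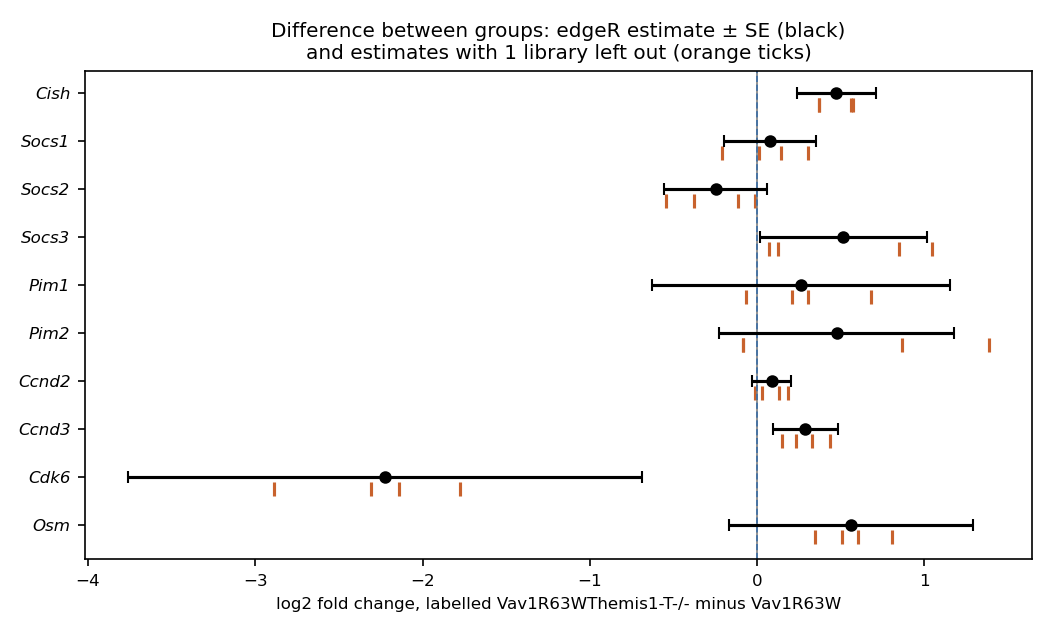
edgeR log2 fold change of each member, labelled deleted minus Vav1R63W (black, bars ± SE), with the 4 estimates that leave out 1 library (orange ticks); the dashed line is the median of all tested genes. Cdk6 lies at -2.22, the other members lie between -0.25 and 0.56, and the ticks of Socs1, Pim1, Pim2 and Ccnd2 fall on both sides of 0.

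Osm (ENSMUSG00000058755, chromosome 11, 4236420 to 4241026, plus strand), which encodes oncostatin M, a cytokine of the IL-6 family and an early described STAT5 target, was at 18.4 and 24.4 CPM with Vav1R63W alone and at 32.6 and 29.6 CPM in the labelled deleted libraries. The groups did not overlap. Means were 21.4 ± 4.26 and 31.1 ± 2.13 CPM (SD, n = 2 each), a ratio of 1.45, and the log2 fold change was 0.56 ± 0.73 (SE, edgeR unadjusted p = 0.480). It was 0.51 without the labelled deleted replicate 2, 0.35 without Vav1R63W replicate 2 and 0.81 without Vav1R63W replicate 3. A change in RNA per cell and in the share of a cell type cannot be told apart in such bulk samples.

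Oncostatin M is also made by myeloid cells, so their markers are given beside it. All 8 neutrophil markers had 0 reads in every library, and so did 7 of the 9 monocyte and macrophage markers, Lyz2, Csf1r, Adgre1, Itgam, Cd14, Fcgr1 and Cd68. The remaining 2, Ctss and Cybb, summed to 753 and 822 CPM with Vav1R63W alone and 840 and 1018 CPM in the labelled deleted libraries, nearly all of it Ctss. Of the receptor chains for oncostatin M, Osmr and Lifr had 0 reads in all libraries, whereas Il6st, the shared gp130 chain, was at 84.0 and 193 CPM with Vav1R63W alone and 143 and 213 CPM in the labelled deleted libraries.

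Levels of different genes were compared per length, as reads per kilobase of annotated exon and scaled to library totals (RPKM). Ccnd2 was highest, at 122 ± 8.52 RPKM with Vav1R63W alone and 128 ± 9.08 in the labelled deleted libraries (SD, n = 2 each), and Socs1 followed at 54.6 ± 2.10 and 56.4 ± 12.8. A middle block held Ccnd3 (26.4 ± 4.42 RPKM in Vav1R63W cells), Socs3 (26.2 ± 10.8), Cish (20.1 ± 1.51), Pim2 (18.4 ± 12.6) and Socs2 (15 ± 1.55). Each pair of neighbours in that block overlapped between its libraries. In the labelled deleted libraries Socs3 (37.1 ± 14.6) stood before Ccnd3 (31.6 ± 0.819), again within their spread. Osm (9.40 ± 1.87), Pim1 (5.59 ± 1.87) and Cdk6 (0.983 ± 0.105) closed the order in Vav1R63W. In the labelled deleted libraries Osm (13.7 ± 0.939) stood before Socs2 (12.4 ± 2.92), within their spread. With both strand columns summed Cish stood at 39.5 RPKM in Vav1R63W cells, above Ccnd3 at 30.7 and Socs3 at 23.8, so its place depends on the overlapping reads.

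Set beside their relatives, the members were most of what the SOCS genes and D cyclins expressed. Outside the set, Pim3 and Cdk4 held large shares of the Pim kinases and of the D cyclin kinases. Of the summed RPKM of the 8 SOCS genes, Socs1 made up 47.6% and 42.7% with Vav1R63W alone and 34.7% and 47.6% in the labelled deleted libraries. Socs4, Socs5, Socs6 and Socs7 were each under 5 RPKM in every library. Socs5 had 54 and 12 reads with Vav1R63W alone and 0 and 1 in the labelled deleted libraries, and Socs6 had 251 and 240 against 56 and 2; neither passed (edgeR adjusted p = 0.998 and 1.000). The scaled ratio of summed Socs5 reads was 69.5 (exact 95% binomial interval 12.1 to 2787, counting error only).

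Pim3, no member, was at 19.4 ± 5.24 RPKM with Vav1R63W alone and 16.4 ± 10.7 in the labelled deleted libraries (SD, n = 2 each), a level within the spread of Pim2. It made up 33.2% and 58.4% of the summed Pim RPKM with Vav1R63W alone and 37.3% and 27.8% in the labelled deleted libraries. Of the D cyclins Ccnd1 had reads in 1 library only, 25 in the labelled deleted replicate 2. Cdk4, the other D cyclin kinase, was at 94.3 ± 16.3 RPKM with Vav1R63W alone and 98.7 ± 1.19 in the labelled deleted libraries. Cdk6 thus made up 1.26% and 0.851% of the summed RPKM of both kinases with Vav1R63W alone and 0.292% and 0.128% in the labelled deleted libraries. The log2 fold change of Cdk4 was 0.09 ± 0.20 (SE). Stat5b, at 58.1 ± 21.6 and 47.7 ± 8.04 RPKM, was above Stat5a, at 13.6 ± 0.812 and 15.4 ± 1.84, in every library.

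**Figure D4:**
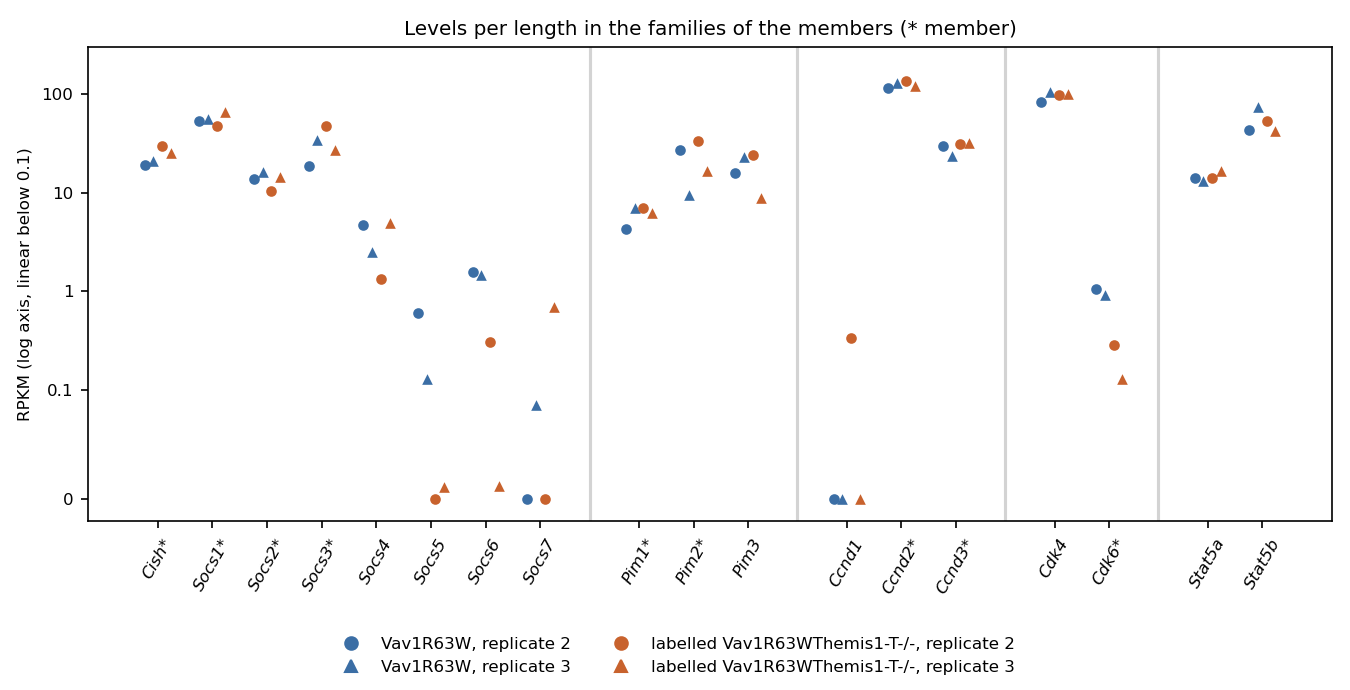
RPKM (log axis, linear below 0.1) of the SOCS, Pim, D cyclin, D cyclin kinase and STAT5 genes, one point per library, with members starred. Ccnd2 and Cdk4 lie near 100 in all 4 libraries, Cdk6 near 1 or below, and Socs5, Socs6, Socs7 and Ccnd1 reach or approach 0 in some libraries.

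The genes that carry the IL-2 signal to the members did not pass the test either. Of 8 receptor, JAK and STAT5 genes, all tested, 3 had a positive and 5 a negative fold change, with a median of -0.11. Jak1 was at 517 and 530 CPM with Vav1R63W alone and 486 and 437 CPM in the labelled deleted libraries (log2 -0.16 ± 0.13, SE). Il2rb, the signalling chain shared with IL-15, was at 1559 and 1165 against 1193 and 1156 CPM. Il2ra, the chain used in the sort, was at 310 and 274 against 223 and 325 CPM, and its groups overlapped (log2 -0.06 ± 0.26, SE, and 0.20 without the labelled deleted replicate 2). Il2 itself had 9 to 11 reads per library.

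Of the brakes on this pathway outside the set, 6 of 7 were tested, with 2 positive and 4 negative fold changes, a median of -0.20 and 0 called. Pias4, a SUMO ligase that restrains STATs, was at 55.3 and 43.1 CPM with Vav1R63W alone and 108 and 61.4 CPM in the labelled deleted libraries (log2 0.81 ± 0.45, SE), and its log2 fold change was 0.37 without the labelled deleted replicate 2. Ptpn2, a phosphatase of JAKs and STATs, was at 106 and 109 against 86.8 and 76.0 CPM (log2 -0.38 ± 0.29, SE). In the list of other SOCS genes and their ubiquitin ligase, 7 of 8 were tested, 3 positive and 4 negative, with a median of -0.16 and 0 called.

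Other genes that IL-2 and STAT5 raise showed no common direction. Of 12 tested of 13, 6 had a positive and 6 a negative fold change, with a median of -0.05 and 0 called by edgeR. Gzmb, the cytotoxic protease granzyme B, had 100 and 217 reads with Vav1R63W alone and 0 and 1 in the labelled deleted libraries, and is the 1 gene of this list that DESeq2 called (adjusted p = 0.0305, edgeR adjusted p = 0.902). The authors' deposited table called 0 genes of this list. Il18r1, an IL-18 receptor chain, had 5 and 2 reads against 209 and 100 (edgeR adjusted p = 0.965, DESeq2 adjusted p = 0.0932). Among genes that IL-2 lowers, Il7r was at 133 and 87.3 CPM with Vav1R63W alone and 79.1 and 96.3 CPM in the labelled deleted libraries, Il6ra at 34.7 and 73.0 against 69.9 and 106 CPM, and Bcl6 had too few reads for a test.

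Of the G1 partners of the D cyclins, 13 of 17 were tested, 7 positive and 6 negative, with a median of 0.03 and 0 called. Ccne1, the G1/S cyclin E, had 37 and 144 reads with Vav1R63W alone and 0 in both labelled deleted libraries (edgeR adjusted p = 0.900). Against a floor of 3 reads per library its mean was 31.4-fold lower. That floor covers counting error only and not the spread between libraries, so it sets no lower bound on the difference between groups. Rbl2, a retinoblastoma relative of resting cells, was at 67.3 and 6.95 CPM with Vav1R63W alone and 56.9 and 149 CPM in the labelled deleted libraries, and its groups overlapped.

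**Figure D5:**
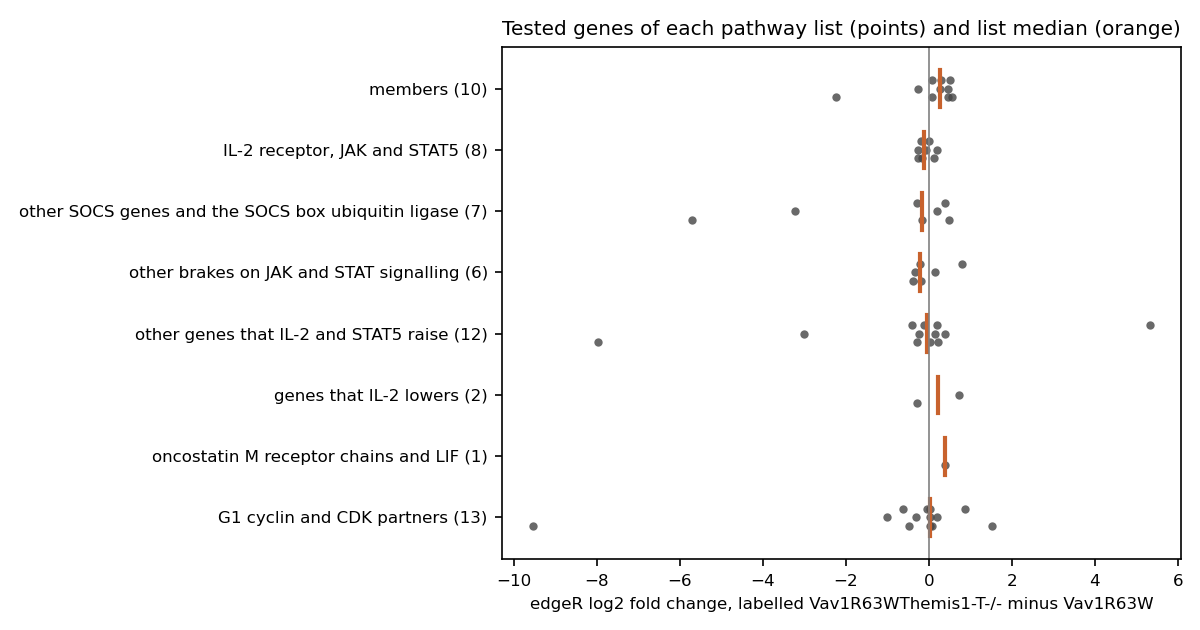
edgeR log2 fold change (linear axis), labelled deleted minus Vav1R63W, of every tested gene of the members and of the 7 pathway lists (number tested in brackets), with list medians in orange. Most genes of each list lie within 1 unit of 0, and Ccne1 (-9.53), Gzmb (-7.97), Socs5 (-5.71) and Il18r1 (5.33) lie farthest out.

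The genes whose pattern over the 4 libraries was most like that of Cish, among 7363 other tested genes at a mean of 10 CPM or more, were Rce1, Daxx and Actr2. Their log2 CPM, centred on each gene's mean, departed from Cish by at most 0.04, 0.05 and 0.05 in any library. Daxx, for example, was at 85.5 and 92.7 CPM with Vav1R63W alone and 137 and 109 CPM in the labelled deleted libraries.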

How the data were processed

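RNA of 4 libraries, 2 per group, was sequenced. The authors trimmed reads with Trim Galore and aligned them with STAR, per the submitters' processing notes. The build is given as Ensembl release 90 in the design text and as mm9 in the notes, and the sources used here give no tool versions. The deposited tables hold raw read counts per gene, unstranded and by strand. The unstranded counts equal those of the series table for all 52636 genes. The deposited log2 fold changes and p-values are the authors' DESeq2 comparison, per the file headers and design text. Summary lines of each file (21.1% to 23.1% of reads, 5.68% to 6.33% ambiguous) were left out.

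Counts were fitted with edgeR 4.0.16 (R 4.3.3; TMM; filterByExpr minimum count 10 and total 15; robust quasi-likelihood test, two-sided; Benjamini-Hochberg over all tested genes, called at an adjusted p under 0.05). Standard errors are the fold change over the square root of F. CPM uses each library's total over genes. RPKM divides by the union of GENCODE M21 exons (GRCm38), which is not the counting annotation. Symbols matched 52403 of 52636 IDs. Ratios of reads are scaled by library totals, and their intervals and the floor of 3 reads cover counting error only.

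The members and lists were chosen with earlier results of these data known. The text names the members, Themis, Foxp3, Il2ra, the 2 genes of each list with the smallest p (all where 3 or fewer were tested) and the 3 genes nearest to the top member. The relatives of the members (Il2, Cdk4, Pim3, Stat5a, Stat5b and other family genes), the genes that overlap them and E2f1 are named outside this rule, after their values were seen. Alternatives were DESeq2 1.42.0, limma-voom (limma 3.58.1), other scalings, filters and count columns, a replicate block, and leaving out each library. The edgeR script was tested on simulated counts that vary less between libraries than these data. That run checks the script and does not measure how many true differences it would call here. The monocyte and macrophage markers were used without a further gene that is not reported here.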

Additional observations from a re-analysis of the deposited data

How the results depend on the processing

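In all 12 alternatives 0 members were called. The 10 members gave 120 alternative fold changes, of which 115 kept their sign. Cish, Socs2, Socs3, Ccnd3, Cdk6 and Osm kept theirs in every alternative. The others changed sign only when 1 library was left out: Socs1 ranged from -0.21 to 0.31, Pim1 from -0.069 to 0.679, Pim2 from -0.084 to 1.39 and Ccnd2 from -0.01 to 0.183. The median of the members ranged from 0.0676 to 0.268 when 1 library was left out, and from 0.25 to 0.33 under the other alternatives. The count of genes called was 0 except with DESeq2 (206); the cause of that gap was not tested.

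Of 226 alternative values of the other named genes, 215 kept their sign and call, and Gzmb was called only by DESeq2 (-8.32). Themis was at -3.05 with limma-voom, -2.93 with the replicate block and from -10.55 to 1.68 with 1 library left out. Also with 1 library left out, Il2rb ranged from -0.361 to 0.008, Il7r from -0.549 to 0.007, Il6st from -0.113 to 1.134, Foxp3 from -0.016 to 0.453 and Il2ra from -0.39 to 0.202. Replicate numbers are shared by the groups, but the differences of replicate 2 minus 3 correlated at 0.02 between groups over the tested genes, so the numbers do not show pairs. With the replicate block 0 genes were called, and the members' median was 0.30.

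Where 1 library is left out, the lone library of its group is assumed to vary like the others. At this depth, the 5343 tested genes under 30 CPM have a median standard error of 1.84 on the log2 scale, against 0.26 at 100 CPM or more. The members in that class had smaller ones, at 1.54 for Cdk6, 0.89 for Pim1 and 0.73 for Osm.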
